A study of Homo sapiens with 12 samples.

Results

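The genes described here are those whose expression changed differently over 28 days of differentiation in neural progenitor cells (NPCs) with and without the H3K27 demethylases UTX (KDM6A) and JMJD3 (KDM6B). The measure is a genotype by differentiation interaction, the change from NPC to day 28 in double knockout (dKO) cells minus the same change in wild-type (WT) cells. A negative value means that a gene rose less, or fell more, in dKO cells, and a positive value means that it rose more, or fell less. The interaction rests on 8 of the 12 RNA-seq samples, 2 in each of the groups WT-NPC, dKO-NPC, WT-D28 and dKO-D28, and was tested for the 13454 of 58302 annotated genes with a mean of at least 20 raw counts over the 12 samples. All cells came from the human embryonic stem cell line H1. In dKO cells the catalytic site of the JmjC domain was deleted in JMJD3 and then in UTX by CRISPR/Cas9 with a donor carrying a puromycin cassette. In these samples a clonal difference from WT cannot be told apart from the deletions. By morphology and staining, the paper reports a rescue of dKO differentiation with re-expressed JMJD3 and UTX, cells that are not among these samples. The NPCs were made by dual inhibition of SMAD signalling and grown as neural spheres with FGF2 and EGF, at an early passage that the labels do not give. For the day 28 groups such NPCs were dissociated and left to differentiate spontaneously without FGF2 and EGF, in a medium with GDNF, BDNF and cAMP. The other 4 samples, WT and dKO NPCs at passage 4, entered the model fit for the shared estimate of the spread and do not enter the interaction.

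UTX and JMJD3 remove methyl groups from lysine 27 of histone H3, a mark that Polycomb repressive complex 2 places on silent developmental genes. During neural differentiation, progenitors stop dividing, switch off progenitor transcription factors and switch on genes for axons, synapses and neurotransmitter handling, many of which carry this mark while they are silent. The interaction asks which of these steps took a different course in the cells without the 2 demethylases.

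The NPC libraries were the shallow ones, with 756942 to 1438807 counts, against 8813561 and 10601172 in WT-D28 and 4082248 and 5214431 in dKO-D28, so depth cannot be told apart from stage. A total of 3 counts corresponds to 2.12 to 3.92 CPM (counts per 1000000 counts of the library, with TMM factors) in the NPC libraries and to 0.302 to 0.727 CPM at day 28, which covers counting error only. The counts of the 2 dKO-D28 samples differed by a chi-square of 11.3 per degree of freedom, against 1.57 to 2.72 in the other 3 groups. This measure grows with depth, and WT-D28, the group with the deepest libraries, was at 2.72. On log2(CPM + 0.5) the median SD was 0.188 in dKO-D28, 0.182 in WT-NPC, 0.148 in dKO-NPC and 0.0578 in WT-D28. The 2 samples differed more than 2-fold on this scale for 5.91% of genes in dKO-D28, 7.77% in WT-NPC, 4.7% in dKO-NPC and 0.23% in WT-D28. Nothing in the labels says whether replicates were separate cultures, and no batch is given, so p-values measure the spread between these samples only. The progenitor markers SOX1 and SOX2 were at 143 to 185 CPM and at 364 to 465 CPM in the 4 NPC libraries, whereas POU5F1 and NANOG, which define pluripotent cells, had 0 counts in all 8 samples. Other markers on the list of 10 for pluripotent cells were present. That list summed to 175 and 176 CPM in WT-NPC, 19.3 and 17.1 in WT-D28, 156 and 142 in dKO-NPC and 148 and 166 in dKO-D28. The neuron markers together held 4010 and 3990 CPM in the WT-D28 samples and 1330 and 690 CPM in the dKO-D28 samples. In bulk RNA, fewer cells of a type and less RNA per cell cannot be told apart, for any of the results that follow. KDM6A lay at 61.4 and 54.4 CPM in WT-NPC, 39.8 and 38.9 in dKO-NPC, 44.3 and 49.0 in WT-D28 and 59.4 and 32.4 in dKO-D28, and KDM6B between 146 and 205 CPM in all 8 samples. Counts over a whole gene do not check a deletion of its catalytic site, and neither gene was called in the interaction (log2 0.50 ± 0.343 SE and -0.27 ± 0.161 SE, edgeR adjusted p = 0.295 and 0.228).

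The interaction was called where edgeR's quasi-likelihood test gave p below 0.05 before adjustment and the fold change exceeded 2. It passed for 1619 genes that were higher and 1500 that were lower, which is 12% and 11.1% of the genes tested. With Benjamini-Hochberg adjustment over all 13454 genes the numbers were 1442 (10.7%) and 1276 (9.48%). The 4 differences between a dKO-D28 and a dKO-NPC sample did not overlap with the 4 such WT differences for 1587 of the 1619 and 1489 of the 1500 genes. That lack of overlap was itself common, at 26.6% of all genes tested in the higher and 27.2% in the lower direction. Of the genes called, 2791 (89.5%) were protein coding and 230 (7.37%) were long non-coding RNAs.

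Most genes that changed in WT cells were not called as changed in dKO cells. In WT cells 1737 genes rose over 28 days (12.9% of those tested) and 1544 fell (11.5%), and in dKO cells, which share no sample with them, 539 rose (4.01%) and 422 fell (3.14%). The 1737 genes that rose in WT had a median log2 change of 1.59 there and of 0.10 in dKO, with an interquartile range of -0.28 to 0.59, and 10.2% of them also rose in dKO. The 1544 genes that fell in WT had a median of -1.64 in WT and -0.06 in dKO, with an interquartile range of -0.42 to 0.25, and 12.2% of them also fell in dKO. Across the 13454 genes the changes in the 2 genotypes correlated weakly (Pearson's r = 0.17, Spearman's rho = 0.13), a description only, since genes are not independent replicates and the NPC libraries were shallow.

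Split by these 2 changes, which share samples with the interaction, the lower genes were mainly ones that rose in WT alone, 1004 of 1500, while 86 rose in WT and fell in dKO, 97 fell in dKO alone and 300 passed in neither genotype. The higher genes were mainly ones that fell in WT alone, 1048 of 1619, while 83 fell in WT and rose in dKO, 131 rose in dKO alone and 312 passed in neither. Read the other way, 999 of the lower and 1192 of the higher genes had a called knockout effect at day 28 and none in NPCs. The knockout effect was called for 4.42% of all genes in NPCs and for 24.2% at day 28.

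**Figure D1:**
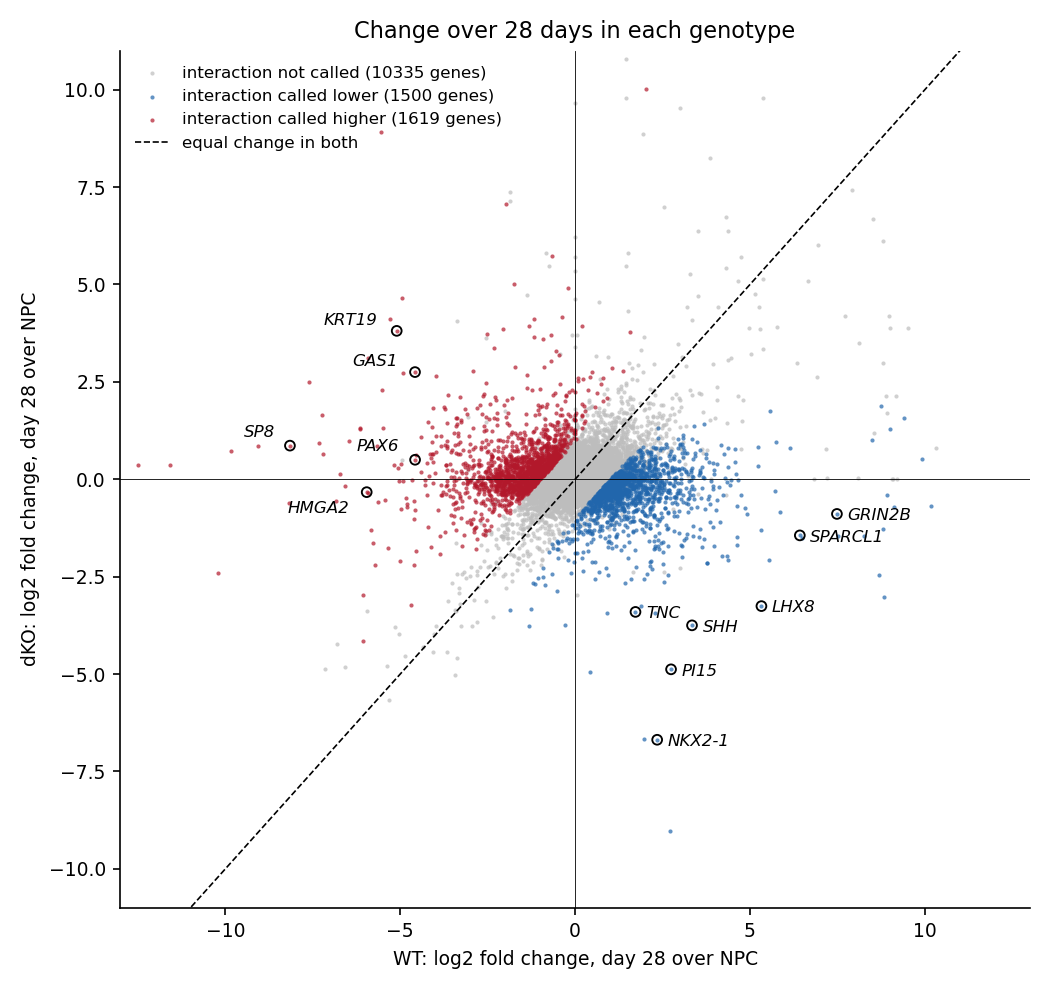
Each point is one of the 13454 genes tested, with the log2 fold change from NPC to day 28 in WT cells on the x axis and in dKO cells on the y axis, both fitted by edgeR, and red and blue points were called higher (1619) and lower (1500) in the interaction. Many called genes spread along the horizontal axis, near 0 in dKO, away from the dashed line of equal change. Genes with 0 counts in a group have fitted values that depend on the prior count.

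Genes with roles in the ventral forebrain were among those with the lowest interaction values. NKX2-1, a homeobox transcription factor of the ventral telencephalon and hypothalamus (ENSG00000136352, GRCh38, chr14:36516392-36521149, minus strand), stood at 67.9 and 71.6 CPM in WT-NPC and at 360 and 354 CPM in WT-D28. In dKO cells it went from 88.6 and 117 CPM to 1.94 and 0.193 CPM, 9 reads in the 2 dKO-D28 libraries together. Thus NKX2-1 was at a like level in both kinds of NPC, rose in WT and fell in dKO, with an interaction log2 of -9.03 ± 0.376 SE (edgeR adjusted p = 2.11e-10). SHH, the secreted ligand that patterns the ventral neural tube, rose from 6.53 and 5.96 to 62.4 and 63.5 CPM in WT. The dKO samples had 3.75 and 5.66 CPM of SHH as NPCs and 0.485 and 0.193 CPM at day 28, a ratio of 0.0681 with a 95% exact counting interval of 0.0124 to 0.248 on 3 reads. LHX8, a LIM-homeobox factor of ventral forebrain neurons, reached 112 and 119 CPM in WT-D28 from 3.92 and 2.24 CPM, and ended at 0.485 and 0.386 CPM in dKO-D28. ISL1, another LIM-homeobox factor, rose in WT from 9.14 and 8.20 to 56.4 and 52.2 CPM and fell in dKO from 10.5 and 6.36 to 2.18 and 0.965 CPM.

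NKX2-1-AS1 overlaps NKX2-1 on the other strand (GRCh38, chr14:36519278-36523016), and SFTA3 adjoins NKX2-1 on its own strand (chr14:36473288-36513829), with a RefSeq start inside it. The strand used in counting is not given in the sources used here, so reads of NKX2-1 and NKX2-1-AS1 cannot be told apart, and some may be shared with SFTA3. NKX2-1-AS1 had 1.31 and 9.69 CPM in WT-NPC, 44.7 and 41.0 in WT-D28, 15.8 and 17.0 in dKO-NPC and 0 counts in both dKO-D28 samples, an interaction at or below -8.35 on the log2 scale with the dKO-D28 group set to 3 counts in all. SFTA3 moved with them, to 26.5 and 25.2 CPM in WT-D28 and to 1 read in the dKO-D28 group.

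The other genes with the lowest values had varied functions. SPARCL1, a matricellular protein made by astrocytes, rose from 6.53 and 8.95 to 679 and 710 CPM in WT and fell in dKO from 7.51 and 14.9 to 7.51 and 1.35 CPM, where the first day 28 sample lay within the range of the dKO-NPC samples. GRIK3, a kainate receptor subunit, rose from 40.5 and 31.3 to 477 and 473 CPM in WT and fell from 27 and 24 to 10.4 and 1.74 CPM in dKO. PI15, a secreted peptidase inhibitor, and PTPRB, a receptor tyrosine phosphatase, rose in WT to 38.1 and 38.2 CPM and to 113 and 106 CPM. In dKO both fell, PI15 from 15.8 and 17.7 to 0.970 and 0.193 CPM and PTPRB from 34.5 and 41.0 to 10.9 and 6.56 CPM. Interaction log2 values were -7.87 ± 0.905 SE for SPARCL1, -5.92 ± 0.755 for GRIK3, -7.62 ± 0.586 for PI15 and -5.91 ± 0.431 for PTPRB.

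GABAergic identity genes, which build inhibitory neurons, formed the list with the lowest median interaction. Of 19 tested, 14 were lower and 1 was higher, with a median of -3.04 against 0.00 over all genes, and the list's median change was 2.13 in WT and -1.20 in dKO. GAD1, which makes GABA from glutamate, rose from 20.9 and 9.69 to 178 and 174 CPM in WT and stayed between 3.28 and 4.36 CPM in the 4 dKO samples. Its partner enzyme GAD2 rose from 20.9 and 23.1 to 97.9 and 96.7 CPM in WT and fell from 13.5 and 9.19 to 8 and 1.93 CPM in dKO. The vesicular GABA transporter SLC32A1 had an interaction log2 of -4.08 ± 0.906 SE (edgeR adjusted p = 0.00284). The homeobox genes DLX1, DLX2, DLX5 and DLX6, which specify these neurons, were all lower. DLX1 lay at 66.6 and 67.1 CPM in WT-NPC, 369 and 343 in WT-D28, 25.5 and 12 in dKO-NPC and 10.7 and 0.965 in dKO-D28, and its interaction was -4.20 ± 0.980 SE (edgeR adjusted p = 0.0167). DLX2, at -2.02, lost its call when the first dKO-NPC sample was left out, with a log2 of -0.76. The exception was SP8, a zinc-finger factor also used outside this lineage, which is described below with the genes that fell in WT. The first dKO-D28 sample was above the second by a median log2 of 0.98 over this list, and between 10 and 15 members were lower when any 1 of the 8 samples was left out.

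Genes for the structure and signalling of neurons were more often lower than higher in several lists. Of 33 neuronal cytoskeleton and axon genes tested, 22 were lower and 1 was higher (median -1.64), and 21 of 34 synaptic vesicle and release genes were lower and 1 was higher (median -1.38). Of 24 glutamate and GABA receptors, 14 were lower and 2 higher (median -2.06), and of 35 voltage-gated ion channels 18 were lower and 2 higher (median -1.36). The median change of these 4 lists lay between 1.26 and 1.65 in WT and between -0.36 and 0.12 in dKO. For postsynaptic scaffold and adhesion genes the count was 11 lower and 2 higher of 28 (median -0.85), and for axon guidance genes 14 lower and 10 higher of 44 (median -0.67, or -0.50 with members that have a group at 0 set to their bound). The postsynaptic median was -1.28 without the first dKO-D28 sample, and the axon guidance median was -0.41 without the first dKO-NPC sample and -0.38 with the GC and length correction. Between the dKO-D28 samples, the first was above the second by a median log2 of 0.86 in the cytoskeletal list and 0.52 in the synaptic vesicle list. With either of those samples left out, every list named in this paragraph had more lower than higher genes.

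GAP43, a growth cone protein, rose from 86.2 and 68.6 to 584 and 611 CPM in WT and had 81.1 and 87.7 CPM in dKO-NPC and 73.9 and 23.2 CPM in dKO-D28, an interaction of -3.80 ± 0.679 SE (edgeR adjusted p = 0.0057). STMN2, a regulator of microtubules in axons, rose from 295 and 248 to 1250 and 1287 CPM in WT, and lay at 258 and 255 CPM and then 216 and 105 CPM in dKO. Both genes were at a like level in the 2 kinds of NPC and separated at day 28. SCG2, a secretory granule protein, rose from 41.8 and 39.5 to 587 and 588 CPM in WT, while its dKO values were 53.3 and 59.4 CPM and then 46.3 and 8.49 CPM. GRIN2B, an NMDA receptor subunit, was nearly silent in NPCs, with 3 reads in the WT and 5 in the dKO group, and reached 274 and 248 CPM in WT-D28 against 1.21 and 0.772 CPM in dKO-D28. The sodium channel gene SCN1A reached 65.7 and 73.6 CPM in WT-D28 against 13.3 and 4.05 CPM in dKO-D28. The neurexin NRXN3, a presynaptic adhesion protein, had an interaction of -3.78 ± 0.337 SE (edgeR adjusted p = 9.69e-07).

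Members of these lists that went the other way also had named roles. CNTN2, an axonal adhesion protein, fell in WT from 82.2 and 51.4 to 28.2 and 26.7 CPM and rose in dKO from 39.0 and 26.2 to 215 and 105 CPM. SYNPR, a synaptic vesicle membrane protein, fell in WT from 14.4 and 9.69 to 3 and 1.91 CPM and rose in dKO from 6.01 and 3.54 to 13.1 and 14.7 CPM. Among axon guidance genes, the ephrin receptor EPHB1 was lower (-4.67 ± 0.290 SE) and its relative EPHA7 was higher (4.72 ± 0.326 SE). EPHA7 fell in WT from 96.6 and 70.1 to 4.08 and 5.53 CPM and was at 63.8 and 78.9 CPM in dKO-D28. The neuropilin NRP2, a co-receptor for semaphorins, rose in WT to 248 and 244 CPM and fell in dKO to 50.4 and 33.4 CPM.

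Astrocyte genes were also lower as a list, 11 of 20 tested with 1 higher (median -2.03, or -2.16 with the bound for members with a group at 0, and -0.76 over members with at least 10 counts in each of the 8 samples), with a median change of 1.78 in WT and 0.13 in dKO. GFAP, the intermediate filament of astrocytes, had 2.61 and 2.98 CPM in WT-NPC, 14.9 and 18.2 in WT-D28, 3.75 and 7.07 in dKO-NPC and 5.09 and 6.95 in dKO-D28. It rose in WT only and stayed low in every sample (interaction -2.37 ± 0.666 SE, edgeR adjusted p = 0.0131). The nuclear factor I genes NFIA, NFIB and NFIX, which drive glial differentiation, were all lower. The lowest of them, NFIX, reached 29.9 and 31.2 CPM in WT-D28 and 1.70 and 0.193 CPM in dKO-D28. SLC1A3, a glutamate transporter of radial glia and astrocytes, rose from 106 and 82.7 to 265 and 267 CPM in WT, against 34.5 and 17.7 and then 17.2 and 14.7 CPM in dKO.

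Genes that fell in WT and were not called as changed in dKO included factors of the eye field. SIX6 is a homeobox factor of the retina, ALDH1A3 makes retinoic acid there, and PAX6 is used both in the eye and in dorsal forebrain progenitors. ALDH1A3 (chr15:100877714-100916626) had 205 and 160 CPM in WT-NPC and 0 counts in both WT-D28 samples, whereas dKO cells had 66.1 and 28.3 CPM as NPCs and 52.4 and 68.7 CPM at day 28. Its interaction was at least 10.47 on the log2 scale, with WT-D28 set to 3 counts in all. ALDH1A3-AS1, which overlaps it on the other strand, had the same course with a bound of 9.56. SIX6 had 35.3 and 23.9 CPM in WT-NPC, 0 counts in WT-D28, 10.5 and 19.1 CPM in dKO-NPC and 19.6 and 29.1 CPM in dKO-D28. In none of these 3 genes was a change called in dKO.

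PAX6 fell in WT from 304 and 262 to 11.9 and 11.7 CPM and was at 209 and 178 CPM in dKO-NPC and 190 and 356 CPM in dKO-D28 (interaction 5.08 ± 0.379 SE, edgeR adjusted p = 8.06e-06). SP8 fell from 95.3 and 108 CPM to 6 reads in WT-D28 and was at 128 and 132 CPM and then 205 and 269 CPM in dKO (9.02 ± 0.356 SE, edgeR adjusted p = 9.96e-11). In PAX6 the 4 dKO samples lay on either side of the WT-NPC samples, in SP8 they lay above them, and in both genes no dKO sample came near the WT-D28 level. MECOM, a zinc-finger regulator, fell from 56.1 and 29.1 CPM to 4 reads in WT and had 45.8 and 25.5 CPM and then 42.4 and 90.9 CPM in dKO. L1TD1, an RNA-binding protein of pluripotent and early cells, rested on few NPC reads, 13 in each genotype. It was at 0 counts in WT-D28 and rose in dKO to 33.9 and 20.5 CPM, an interaction of at least 7.71 on the log2 scale.

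The wider list of radial glia and progenitor genes had 16 higher and 3 lower members of 39 (median 0.82, or 0.56 with the bound for a member with a group at 0, and 0.52 over members with at least 10 counts in each of the 8 samples), with a median change of -0.87 in WT and -0.21 in dKO. LIN28A and HMGA2, the top members, belong to the fetal growth program that declines as tissues mature. LIN28A fell from 87.5 and 84.2 to 0.840 and 0.604 CPM in WT and was at 87.1 and 79.9 CPM and then 32.2 and 80.3 CPM in dKO. HMGA2 fell from 394 and 393 to 6.48 and 6.14 CPM in WT and was at 545 and 612 CPM and then 385 and 536 CPM in dKO (5.63 ± 0.230 SE, edgeR adjusted p = 1.33e-10). LIN28B and the mRNA-binding proteins IGF2BP1, IGF2BP2 and IGF2BP3, which act in the same program, were called higher as well. PROM1, the gene for the progenitor surface protein CD133, fell from 103 and 95.4 to 2.88 and 3.02 CPM in WT and stayed between 75.4 and 109 CPM in the dKO samples. The lowest member, the matrix protein TNC, rose in WT from 49.6 and 181 to 414 and 404 CPM and fell in dKO from 419 and 537 to 40.0 and 50.0 CPM. The 2 WT-NPC samples of TNC lay far apart, both below WT-D28.

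Not all progenitor genes separated. A shorter set of neural progenitor markers had 2 higher and 0 lower of 9 tested, with a median interaction of -0.05. Over all genes tested 12% were higher and 11.1% lower. The summed level of these markers was 7680 and 7770 CPM in WT-NPC and 5180 and 5210 in WT-D28. In dKO it was 8370 and 8870 CPM in NPCs and 4920 and 4290 at day 28. SOX2 had 465 and 422 CPM in WT-NPC, 412 and 409 in WT-D28, 385 and 364 in dKO-NPC and 358 and 290 in dKO-D28, and SOX1 ran from 114 to 185 CPM over the 8 samples. Neither gene was called, at interactions of -0.10 ± 0.158 SE and -0.05 ± 0.157 SE. NES, an intermediate filament, was at 1399 and 1431 CPM in WT-NPC, 922 and 942 in WT-D28, 1783 and 1735 in dKO-NPC and 620 and 618 in dKO-D28. Its interaction of -0.90 ± 0.130 SE had an edgeR adjusted p of 7.53e-05 and did not reach the fold threshold.

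Cell division genes gave the most uniform pattern. Of 61 mitosis and G2/M genes tested, 59 were higher and 0 lower, and of 54 DNA replication and G1/S genes 43 were higher and 0 lower, all 59 and 43 of them also with adjusted p below the threshold. The mitotic list had a median change of -2.11 in WT and -0.16 in dKO, and the replication list of -1.77 and -0.07, so that the median interactions were 1.92 and 1.66. Summed over the mitotic list, the level was 7930 and 7480 CPM in WT-NPC, 7420 and 7620 in dKO-NPC, 1890 and 1950 in WT-D28 and 6160 and 7720 in dKO-D28. The WT-D28 samples were far below all others, and of the dKO-D28 samples the first lay below the NPC values and the second among them. The 2 mitotic genes not called were CDC25B and CENPM. With any 1 sample left out, 58 or 59 mitotic and 40 to 46 replication genes were higher and 0 were lower.

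MKI67, the proliferation antigen, had 548 and 556 CPM in WT-NPC, 110 and 116 in WT-D28, 517 and 484 in dKO-NPC and 414 and 567 in dKO-D28, with an interaction of 2.26 ± 0.195 SE (edgeR adjusted p = 5.39e-07). KIF14, a kinesin of cytokinesis, had the top value of the mitotic list (2.81 ± 0.262 SE), falling from 88.8 and 58.9 to 10.7 and 11 CPM in WT and holding at 54.8 to 61.6 CPM in dKO. HMMR, a spindle-associated protein, followed at 2.81 ± 0.371 SE. ORC1, which licenses replication origins, fell from 54.8 and 45.5 to 6.12 and 7.34 CPM in WT and was at 41.3 and 39.6 CPM and then 27.4 and 46.3 CPM in dKO. The repair gene BRCA1 had a similar value (2.69 ± 0.299 SE). Of 13 regulators of the G1 phase 1 was higher and 2 were lower, to be read against 12% higher and 11.1% lower over all genes tested. An unadjusted edgeR p below 0.05 was found for 8 of them and for 5402 of the 13454 genes tested. CDKN2D, a CDK inhibitor, rose in WT alone (-2.13), and its call was lost without the second WT-NPC sample (-1.78) or the first dKO-NPC sample (-1.88). CDK6 fell in dKO from 319 and 344 to 77.1 and 102 CPM (-1.87), and the cyclin gene CCND2 fell in WT alone (1.40).

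Promoters of the genes that moved together were searched for 4 short motifs on either strand in the 250 bases before each RefSeq start (GRCh38.p14). They were CCAAT and TTTGAA, which are found in cell cycle promoters, CAGATG, an E-box bound by proneural factors, and TGACTCA, the AP-1 site. CCAAT was present in 44 of 64 promoters of the mitotic list (68.8%) and in 56.9% of those of the replication list, against 32% of all 35116 promoters. TTTGAA was present in 46.9% of the mitotic, 1.72% of the replication and 13.3% of all promoters. Genes called in the interaction come from the genes tested, whose 14998 promoters held CCAAT in 32.8%, TTTGAA in 9.17%, CAGATG in 8.64% and TGACTCA in 2.75%. Among genes called higher and lower the shares were 34.0% and 29.2% for CCAAT, 12.1% and 9.32% for TTTGAA, 9.15% and 10.9% for CAGATG, and 2.26% and 3.75% for TGACTCA. Over all promoters CAGATG was in 12.2% and TGACTCA in 4.2%, which is more than in those of the genes tested. A match is a description of the letters and not a bound site. These 4 promoters show the range, with matches in capitals: HMMR (chr5:163460382-163460631, plus strand) with 5 CCAAT, of which a pair on opposite strands overlap, and 2 TTTGAA, KIF14 (chr1:200620752-200621001, minus strand) with 1 CCAAT, SIX6 (chr14:60508896-60509145, plus strand) with 2 CCAAT, and SHH (chr7:155812464-155812713, minus strand) with CCAAT directly followed by CAGATG.
HMMR: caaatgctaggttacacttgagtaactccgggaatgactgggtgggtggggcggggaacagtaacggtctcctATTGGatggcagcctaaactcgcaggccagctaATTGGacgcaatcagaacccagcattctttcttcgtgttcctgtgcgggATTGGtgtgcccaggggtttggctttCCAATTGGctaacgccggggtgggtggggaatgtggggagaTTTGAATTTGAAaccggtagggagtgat
KIF14: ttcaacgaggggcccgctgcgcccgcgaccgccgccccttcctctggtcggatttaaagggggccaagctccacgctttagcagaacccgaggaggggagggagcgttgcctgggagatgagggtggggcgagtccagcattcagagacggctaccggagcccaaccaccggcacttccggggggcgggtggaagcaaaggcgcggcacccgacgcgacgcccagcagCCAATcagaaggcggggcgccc
SIX6: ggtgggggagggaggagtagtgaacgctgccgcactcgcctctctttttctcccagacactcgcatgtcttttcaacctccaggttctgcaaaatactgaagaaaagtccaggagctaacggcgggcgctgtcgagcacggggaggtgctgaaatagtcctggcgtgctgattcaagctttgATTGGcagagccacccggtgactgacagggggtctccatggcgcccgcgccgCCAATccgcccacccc
SHH: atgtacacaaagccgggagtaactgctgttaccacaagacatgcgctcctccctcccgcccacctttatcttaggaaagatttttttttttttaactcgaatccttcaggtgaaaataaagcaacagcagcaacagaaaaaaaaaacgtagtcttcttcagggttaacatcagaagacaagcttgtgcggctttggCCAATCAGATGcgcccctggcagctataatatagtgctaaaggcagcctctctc

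The genes with the clearest opposite changes were SHH, PI15, NKX2-1-AS1 and ISL1 among those that rose in WT and fell in dKO, described above, and KRT19, RDH10, GAS1 and TBR1 among those that fell in WT and rose in dKO. KRT19, a keratin of simple epithelia, fell from 10.4 and 13.4 to 0.120 and 0.503 CPM in WT and rose from 13.5 and 14.9 to 120 and 278 CPM in dKO (8.91 ± 1.31 SE, edgeR adjusted p = 0.00123). GAS1, a cell surface protein that binds SHH, fell from 44.4 and 52.2 to 1.92 and 2.11 CPM in WT and rose from 35.3 and 38.9 to 137 and 362 CPM in dKO. RDH10, a retinol dehydrogenase, fell from 43.1 and 36.5 to 5.04 and 5.23 CPM in WT and rose from 13.5 and 9.19 to 47.3 and 106 CPM in dKO. In these 3 genes the second dKO-D28 sample was more than 2-fold above the first, and both were above all 6 other samples. TBR1, a T-box factor of cortical excitatory neurons, had 10 reads in each NPC group, 5 in WT-D28, and 29.1 and 18.0 CPM in dKO-D28 (6.64 ± 0.949 SE, edgeR adjusted p = 7.68e-05).

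Genes with almost no reads in an NPC group have no base for a fold and are given by level. IL33, HMX3, TAC3, CCDC9B and PLPPR5 had 0 counts in both WT-NPC samples and 176 to 664 reads in the WT-D28 group, against 1 to 6 reads in the dKO-D28 group. Their highest member at day 28, the homeobox gene HMX3, stood at 37.8 and 35.1 CPM in WT-D28 and 0.242 and 0.193 CPM in dKO-D28. At the high end stood TFAP2C, COL17A1, ADAMTS19, PAX7 and ITGB4. They had the highest interaction values among genes with few reads in an NPC group and edgeR adjusted p below 0.05. PAX7, a factor of the dorsal neural tube, had 4 reads in WT-NPC, 0 in WT-D28, 6.76 and 8.49 CPM in dKO-NPC and 70.5 and 62.1 CPM in dKO-D28, and its call was lost without the second WT-NPC sample, the only one of the 4 WT samples with reads of it. TFAP2C, a factor of surface ectoderm and neural crest, had 3 reads in WT-NPC, 0 in the next 4 samples, and 6.55 and 23.0 CPM in dKO-D28, and its call was lost without the first WT-NPC sample. The epithelial adhesion genes COL17A1 and ITGB4 reached 28.6 and 64.3 CPM and 22.3 and 41.9 CPM in dKO-D28, and the WT-D28 group had 0 reads of COL17A1 and 4.32 and 3.62 CPM of ITGB4. Without the first dKO-NPC sample the call of HMX3 was lost, and without the second WT-NPC sample that of COL17A1.

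Markers of other cell types were counted beside these genes. The list for pluripotent cells had 3 of 10 markers tested, LIN28A, L1TD1 and DNMT3B, with 3 called higher and 0 lower. Of 10 markers of epithelial and endoderm cells 5 were tested and 3 were called higher, 0 lower, and their summed level was 75.7 and 174 CPM in WT-NPC, 22.9 and 22.8 in WT-D28, 383 and 446 in dKO-NPC and 799 and 1510 in dKO-D28. KRT8 alone gave 392 and 665 CPM of the dKO-D28 sums. CDH1, an epithelial cadherin with 2 and 3 reads in the WT-NPC and dKO-NPC groups, was not called in the interaction (edgeR adjusted p = 0.446), but rose in dKO, and had 72.7 and 213 CPM in dKO-D28 against 5.40 and 5.83 CPM in WT-D28. The endoderm markers SOX17, FOXA2 and AFP had at most 1 read in any of the 8 samples, and GATA4 and GATA6 at most 4 and 5. Neural crest and Schwann cell markers summed to 57.4 and 55.9 CPM in WT-NPC, 34.6 and 30.2 in WT-D28, 52.6 and 48.7 in dKO-NPC and 68.4 and 173 in dKO-D28, so that the first dKO-D28 sample was closer to the NPC samples than to the second. Of 6 tested 1 was called higher and 0 lower, and 0 after adjustment, with SOX10 at 0.242 and 0.386 CPM and TFAP2B at 6.55 and 48.3 CPM in dKO-D28. Retinal pigment and eye markers had 5 higher and 1 lower of 7 tested. The part of such cells in the interaction was not tested.

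Dorsal neural tube and neural crest genes had a median interaction of 2.71, with 7 higher and 1 lower of 21 tested and a median change of -0.30 in WT and 0.94 in dKO. The higher members were PAX7, LMX1B, ERBB3, BMP4, SNAI2, ZIC5 and ZIC2. ZIC1 was lower at -1.55, rising in WT from 65.3 and 154 to 438 and 442 CPM while dKO-NPC already held 304 and 395 CPM. This list depended on single libraries and on genes with few reads. Without the second WT-NPC sample 3 genes were higher and the median was 1.03, and the calls of PAX7, LMX1B and BMP4 were among those lost. Without the first dKO-D28 sample 11 were higher. The 8 members with at least 10 counts in each of the 8 samples had a median of -0.10, with 2 higher and 1 lower. In libraries thinned to the lowest total the median was 1.82 with 4 higher, and the second dKO-D28 sample was above the first by a median log2 of 1.00.

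Wnt pathway genes, which act in dorsal patterning and in progenitor division, had 17 higher and 2 lower of 37 tested (median 1.06, median change -0.80 in WT and 0.18 in dKO). The median interaction was 0.85 without the second dKO-D28 sample, 1.24 without the first, and 0.99 without the second WT-NPC sample. SFRP2, a secreted Wnt modulator, fell from 377 and 357 to 6 and 4.43 CPM in WT and rose from 238 and 205 to 251 and 853 CPM in dKO, where the first day 28 sample was close to the NPCs. SFRP1 fell from 833 and 669 to 19.3 and 15.6 CPM in WT and was at 403 and 294 CPM and then 200 and 283 CPM in dKO. Among receptors FZD1, FZD2, FZD6 and FZD7 were higher, among ligands WNT5A, WNT5B and WNT7B, among agonists RSPO1 and RSPO3, among nuclear effectors LEF1, TCF7 and TCF7L1, and among the regulators of receptor turnover LGR5 and RNF43. AXIN2, a common target of the pathway, was at 18.5 to 29.8 CPM in the WT samples and rose in dKO from 23.3 and 19.1 to 28.9 and 62.3 CPM (1.52 ± 0.523 SE, edgeR adjusted p = 0.0464). The lower members were DKK3 and APC. BMP and TGF-beta genes had 10 higher and 1 lower of 31 (median 0.36, or 0.18 with the GC and length correction), 6 higher without the second WT-NPC sample, and the receptor gene BMPR1B had an interaction of 3.40 ± 0.393 SE.

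Immediate early and AP-1 genes, which respond to stimulation within minutes, had 9 higher and 0 lower of 20 tested (median 0.91). Their median change was 0.17 in WT and 1.06 in dKO. The median interaction was 0.67 without the first dKO-D28 sample, and 7 of the 20 differed more than 2-fold between the dKO-D28 samples. In libraries thinned to the lowest total 9 were higher and 1 was lower. FOS had 439 and 446 CPM in WT-NPC, 526 and 530 in WT-D28, 276 and 224 in dKO-NPC and 1192 and 634 in dKO-D28, and FOSB fell in WT from 188 and 151 to 44.5 and 42.7 CPM and rose in dKO from 109 and 75.7 to 475 and 282 CPM. KLF4 had the top value (4.35 ± 0.424 SE, edgeR adjusted p = 1.79e-06). These transcripts also respond to handling of the cells at harvest, which was not tested.

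Members of a list of neuronal transcription factors, which also holds the RNA-binding protein genes ELAVL2, ELAVL3 and ELAVL4, were called in both directions. Of 28 tested, 10 were higher and 7 lower (median 0.43), and the median was -0.42 to 0.89 when 1 sample was left out. The lower group included ISL1, MYT1L, SCRT1, ELAVL3, ST18 and BCL11A, and the higher group included TBR1, NEUROG2, NEUROG1, EOMES, EBF3, LHX5, NHLH1, LHX2 and FEZF2. The call of MYT1L was lost with adjustment (edgeR adjusted p = 0.0707) and without either dKO-NPC sample, and that of NEUROG2 without the second WT-NPC sample. EOMES, a factor of intermediate progenitors, had 1.31 to 1.5 CPM in the NPC samples, 0.6 and 0.503 CPM in WT-D28 and 20.6 and 24.3 CPM in dKO-D28. Its NPC values lay below the 2.12 to 3.92 CPM that 3 counts make there, so its fold has almost no base. EMX2, a homeobox factor of the dorsal telencephalon, fell from 53.5 and 43.2 to 4.56 and 4.43 CPM in WT and rose from 56.3 and 63.6 to 141 and 218 CPM in dKO. NEUROG1 was at 12.6 and 13.9 CPM in dKO-D28 and at 0.120 and 0.101 CPM in WT-D28, and its interaction of 5.62 turned to -0.37 when the second WT-NPC sample, the only WT-NPC sample with reads of it, was left out. The glutamatergic list was evenly split, with 6 higher and 6 lower of 16, GRIN2B and GRM5 at the low end and SLC17A6 and SLC17A7 at the high end. The last 2, transporters that load glutamate into vesicles, were at 8.73 and 1.74 CPM and at 7.51 and 1.35 CPM in dKO-D28, and the call of SLC17A7 was lost with adjustment (edgeR adjusted p = 0.106).

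BAF chromatin remodelling subunits change their composition as progenitors become neurons. Of 20 tested, 6 were lower and 2 higher (median 0.13), to be read against 11.1% lower and 12% higher over all genes tested. The lower ones included the neuronal subunits ACTL6B, DPF1 and SS18L1. ACTL6B had 9.14 and 8.95 CPM in WT-NPC, 66.4 and 66.0 in WT-D28, 6.01 and 3.54 in dKO-NPC and 5.33 and 1.35 in dKO-D28 (-3.45 ± 0.752 SE, edgeR adjusted p = 0.00277). The ATPase gene SMARCA2 rose in WT from 26.1 and 21.6 to 87.4 and 86.2 CPM and was between 23.3 and 36.5 CPM in the 4 dKO samples (-1.65 ± 0.286 SE, edgeR adjusted p = 0.000395). The alternative ATPase gene SMARCA4 had an interaction of 0.02 ± 0.144 SE, and the progenitor subunit ACTL6A one of 0.52 ± 0.199 SE (edgeR adjusted p = 0.0582), neither called. The list of H3K27 demethylase and Polycomb genes had 1 higher and 2 lower members of 24, among the latter BMI1 at -1.07. The higher one was UTY, a relative of UTX and no Polycomb gene. UTY ran from 0.95 to 1.132 with 1 sample left out, and its call was lost with the GC and length correction (0.742). The call of BMI1 was lost, at -0.87 to -0.98, without the first WT-NPC, the second WT-D28, the first dKO-NPC or the second dKO-D28 sample. EZH2, the Polycomb methyltransferase, was not called at 0.67 ± 0.169 SE.

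Collagen and matrix genes were already higher in dKO-NPC, by a median log2 of 0.93 over 46 genes, and had 16 higher and 6 lower members in the interaction (median 0.59), with 12 higher and a median of 0.26 without the second WT-NPC sample. LAMA1, a laminin chain of basement membranes, fell from 294 and 274 to 24.7 and 24.7 CPM in WT and was between 192 and 253 CPM in the dKO samples (3.74 ± 0.163 SE, edgeR adjusted p = 2e-10). FN1, fibronectin, fell in WT from 530 and 824 to 123 and 118 CPM and was at 1405 and 1556 CPM and then 1351 and 1846 CPM in dKO. COL8A1 went the other way, falling in dKO from 46.5 and 36.1 to 2.18 and 0.579 CPM. Contractile and mesenchymal genes had a median change of -1.45 in WT and -1.03 in dKO, with 22 and 17 of 33 called as fallen. In the interaction 6 were higher and 5 lower, to be read against 12% and 11.1% of all genes tested. The median interaction of this list was 0.20, and -0.14 without the second WT-NPC sample.

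In 3 lists few or no members were called. Of 72 cytosolic ribosomal protein genes 1, RPS7, was higher and 0 were lower. Mitochondrially encoded genes rose alike in both genotypes, 12 of 15 in WT and 13 of 15 in dKO with medians of 1.37 and 1.39, and 0 were called in the interaction by edgeR or DESeq2, with 0 at an unadjusted p below 0.05 in edgeR. Unfolded protein and heat shock genes had 0 called of 22, also with DESeq2, and 5 of them had an unadjusted p below 0.05 in edgeR. In other lists members were called in both directions, to be read against the 12% higher and 11.1% lower over all genes tested. Notch pathway genes had 3 higher and 3 lower of 24, apoptosis genes 7 and 3 of 30, glycolysis and hypoxia genes 5 and 4 of 34, and interferon and MHC class I genes 3 and 2 of 14. The glucose transporter SLC2A1 was an exception within its list, falling from 665 and 715 to 116 and 113 CPM in WT and staying at 741 to 917 CPM in dKO (2.36 ± 0.140 SE, edgeR adjusted p = 9.51e-09). Cholesterol synthesis genes had 0 higher and 3 lower of 23, but 14 lower without the first dKO-D28 sample, which was above the second by a median log2 of 0.98 in this list. No HOX gene passed the filter on low counts.

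Of the remaining markers used in the study for these cells, MAP2, a dendritic microtubule protein, rose in WT from 416 and 405 to 1141 and 1112 CPM and had 426 and 385 CPM and then 522 and 320 CPM in dKO (-1.40 ± 0.250 SE, edgeR adjusted p = 0.00104). TUBB3 was at 56.1 and 42.5 CPM in WT-NPC, 51.0 and 55.0 in WT-D28, 31.5 and 38.9 in dKO-NPC and 27.6 and 10.2 in dKO-D28, and was not called (-1.07 ± 0.525 SE, edgeR adjusted p = 0.156), though it was called at -1.94 without the first dKO-D28 sample. RBFOX3, GJB6, NEUROD1 and NEUROD4 did not pass the filter on low counts.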

How the data were processed

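RNA was extracted with TRIzol and sequenced from libraries made with a TruSeq kit. According to the submitters' processing notes, the authors aligned reads with HISAT2 2.0.4 to hg38, used SAMtools 1.3.1, counted reads per gene with HTSeq 0.6.0 and compared groups with DESeq 1.18.1. The deposited values are raw read counts per Ensembl gene, 1 file per sample, and the strand setting and annotation release are not given in the sources used here. Here, genes averaging 20 or more counts per sample, over 12 samples, were tested in edgeR 4.0.16 (R 4.3.3) with TMM library sizes, robust quasi-likelihood fits of 6 group means and Benjamini-Hochberg adjustment over 13454 genes. A gene was called where p, before adjustment, was below 0.05 and the change exceeded 2-fold, as the study's own threshold. The script was tested on simulated data. Totals ranged from 756942 to 10601172 counts, which sets the precision of low genes. Gene positions come from GENCODE 44, which matched 57532 of 58302 identifiers.

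The genes named are the study's markers, the 8 highest and 8 lowest interaction values among called genes with at least 10 counts in each NPC group, the 5 highest and 5 lowest with fewer, 4 genes of each orientation with opposite changes, and the 2 extremes on each side of each list, beside further list members that were chosen after their values were seen. A few genes that the rule names are not reported here. Members and lists were chosen with earlier results of these data known. A group at 0 counts was set to 3 counts for a bound, and ratios on few reads carry exact 95% intervals, which cover counting error only. An exact permutation of samples within each stage could not give a p below 0.0556. The alternatives tried were DESeq2 1.42.0, upper-quartile normalization, other filters, the 8 samples alone, a prior count of 2, thinned libraries, a GC and length correction, a replicate block and leaving out each sample. Replicate numbers did not pair the samples, as correlations of same-numbered deviations were -0.048 to 0.065. Promoters are from RefSeq (GRCh38.p14). KRT19, PI15 and PTPRB had no entry.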

Additional observations from a re-analysis of the deposited data

Results flagged for a closer look

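The change over 28 days differed between the genotypes, by the test of the interaction itself, for 1619 genes in the higher and 1500 in the lower direction. Among genes whose changes passed in both genotypes with opposite signs, the interaction on the log2 scale was -7.09 for SHH, -7.62 for PI15, -5.11 for ISL1 and at most -8.35 for NKX2-1-AS1, which rose in WT and fell in dKO. It was 8.91 for KRT19, 5.69 for RDH10, 7.33 for GAS1 and 6.64 for TBR1, which fell in WT and rose in dKO. From the passage 4 samples, which the interaction does not use, GRIK3 and TBR1 were chosen after their values were seen. GRIK3 stood at 128.3 and 127.6 CPM in the WT NPCs, against 2.34 and 0.736 CPM in the dKO NPCs. TBR1 was higher in WT as well, at 245.5 and 267.9 CPM against 30.7 and 24.8 CPM, so that the genotype with more TBR1 was WT at passage 4 and dKO at day 28. The difference between these 2 settings was not tested.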

How the results depend on the processing

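The interaction counts of 1619 higher and 1500 lower genes stayed within 1.5 times under all alternatives but one, the filter of at least 10 counts in each of the 8 samples, which tested 10048 genes and called 920 lower and 1134 higher. DESeq2 called 1577 and 1413. With the 8 libraries thinned to the lowest total, 1583 were higher and 1391 lower. With 1 sample left out the counts ran from 1509 to 1764 and from 1359 to 1841, the last without the first dKO-D28 sample, and 1010 of the 1619 and 862 of the 1500 were called each time. The replicate block gave 1605 and 1498 calls, 1498 and 1472 with the GC and length correction, and among the genes named it moved TUBB3 alone past the threshold (-1.10), as DESeq2 did (-1.02).

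The filter of at least 1 count (34982 genes) gave 2873 genes that rose and 2736 that fell in WT, 1334 and 1350 in dKO, 657 and 520 that were higher and lower in dKO-NPC, and 3117 and 2920 at day 28. The filter of at least 10 counts gave 841 risen in WT, 122 risen and 249 fallen in dKO, 120 and 85 in NPCs and 1085 and 858 at day 28. With adjusted p-values 336 rose in dKO, and 132 and 67 were higher and lower in NPCs. With 1 sample left out, 415 to 707 genes fell in dKO, the most without the first dKO-D28 sample, and 256 to 604 were higher in dKO-NPC, the most without the second WT-NPC sample.

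Of 2466 values of named genes under the alternatives, 2378 kept direction and call, 69 lost the call, 9 gained one and 10 turned. Those that turned lay near 0 in SOX1, SOX2, SMARCA4 and MT-ND4. With 1 sample left out, SOX2 ran from -0.266 to 0.038 (the latter without the second dKO-D28 sample), SOX1 from -0.096 to 0.012 (above 0 without the second WT-NPC or the first dKO-NPC sample), SMARCA4 from -0.103 to 0.13 (below 0 without the second WT-NPC or the second dKO-D28 sample), MT-ND4 from -0.073 to 0.496 (below 0 without the second dKO-D28 sample) and NEUROG1 from -0.371 to 6.297 (below 0 without the second WT-NPC sample). SOX1 was also 0.024 with upper-quartile normalization, and SMARCA4 was -0.048 and -0.015 with the filters of at least 1 and 10 counts. Apart from the smaller or larger sets of genes tested, the cause was not tested.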

Other observations

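At passage 4, several genes with a strong interaction differed in level between the NPCs of the 2 genotypes. The paper started differentiation from passage 2 NPCs, so passage 4 is not a stage on the way to day 28. The genes given here were chosen after their values were seen, and the levels carry no test. SPARCL1, the matricellular protein, stood at 93.5 and 93.0 CPM in the WT samples, against 21.3 and 22.8 CPM for dKO. IL33, a cytokine, was at 25.1 and 29.8 CPM in WT, with 0 counts in both dKO samples. KRT19 was low in WT (2.00 and 0.771 CPM) and higher in dKO (39.6 and 40.2 CPM), and so was MECOM (2.34 and 3.34 against 71.7 and 73.8 CPM). NKX2-1 was at 23.4 and 22.1 CPM in WT, against 0.469 and 0.736 CPM for dKO. TFAP2C went the other way from day 28, with WT samples at 40.4 and 42.6 CPM above dKO samples at 7.5 and 11 CPM. SP8, which had nearly no reads in WT-D28, was present in both genotypes at passage 4, at 108 and 119 CPM in WT and at 179.9 and 185 CPM in dKO.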
